A study of Mus musculus with 16 samples.

Results

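The genes for the receptors of glutamate and of GABA were followed in whole brain RNA of Tecpr2 ki/ki mice and wt/wt mice. Members were chosen by symbol alone: the AMPA (Gria), kainate (Grik), NMDA (Grin) and delta (Grid) subunits and the metabotropic receptors (Grm) for glutamate, and the GABA-A (Gabra, Gabrb, Gabrg, Gabrd, Gabre, Gabrq, Gabrr) and GABA-B (Gabbr) subunits for GABA. Of the 55404 genes in the table, 46 carried such a symbol. Grm6 and Gabrr3, with values summing to 4 and 10 over the 16 mice, fell short of the required sum of more than 16, which left 44 genes, 25 for glutamate and 19 for GABA.

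The 8 Tecpr2 ki/ki mice were homozygous for the L1152fs knock-in, a frameshift placed in exon 16 by CRISPR/Cas9 editing of C57BL/6J zygotes, and the 8 wt/wt mice carried the wild type allele. All were untreated males of 5 months and were kept under the same housing. The allele is present in every cell of the animal, and whole brain RNA mixes all regions and cell types, so fewer cells of a type and less RNA per cell cannot be told apart in any value given here. Tecpr2 itself had normalized values of 274 to 320 in ki/ki and 928 to 1002 in wt/wt brains, with no overlap.

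Glutamate is the main excitatory and GABA the main inhibitory transmitter of the brain. AMPA receptors carry the fast excitatory current, NMDA receptors admit calcium and are needed for plasticity, kainate receptors tune release and excitability, delta receptors organise synapses, and metabotropic receptors signal through G proteins. GABA-A receptors are chloride channels that mostly join alpha, beta and gamma subunits, with delta, epsilon or theta subunits in special forms, and GABA-B receptors are G protein-coupled heterodimers of the Gabbr1 and Gabbr2 products.

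The brains held the neuronal RNA that the label implies: all 10 pan-neuronal markers were tested, and their summed level was 5280 to 5450 per 1000000 of the library total in ki/ki and 5290 to 5580 in wt/wt mice. Totals of the deposited values were 11964284 to 12252324 per mouse, from an estimated 9.23 to 15.39 megareads counted on genes. No library was set aside.

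Receptor levels were compared between genes as the normalized value divided by the kilobases of annotated exon. This length joins all annotated exons of a gene, used in brain or not, so it can set the order of genes and their shares. The 44 receptor genes had a median level of 173 per kilobase, against 33.9 for 22878 tested genes with a known length. Gabbr1, the ligand-binding GABA-B subunit, stood first at 991 (959 to 1040 over the 16 mice), followed by the AMPA subunit gene Gria1 at 816 (786 to 842). Each of these ranges was clear of the next in order. Further down the ranges of neighbours mostly overlapped, as for Gria2 at 503, Grin2b at 484 and Gabbr2 at 468 per kilobase.

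Each class had its own leading gene on this per-kilobase scale. Among AMPA subunits Gria1 made up 42.6% ± 0.578 of the class in ki/ki and 42.5% ± 0.60 in wt/wt brains (mean ± SD, n = 8 each), ahead of Gria2, Gria4 and Gria3. This order rests on the lengths, 6043 bases for Gria1 and 15548 for Gria2. Before division Gria2 had the higher mean values, 7754 in ki/ki and 7888 in wt/wt mice, against 4898 and 4969 for Gria1. Grik5, a high-affinity kainate subunit, led its class with 42.9% ± 0.999 and 43.0% ± 1.09, though the longer Grik2 had higher values before division. Grin2b led the NMDA class with 36.3% ± 0.783 and 36.3% ± 0.850. The shares of these leading subunits differed between genotypes by less than the SD between mice.

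In the GABA-A receptor Gabra6, a subunit of cerebellar granule cells, made up 21.6% of the alpha class in both genotypes. Gabrb1 held 20.0% ± 0.377 of the beta class in ki/ki and 19.1% ± 0.400 in wt/wt mice, a difference larger than the SD of either group. A share also moves with the other genes of its class. Gabrb1 itself had a log2 fold change (ki/ki minus wt/wt) of 0.02 (limma, unadjusted p = 0.391), and Gabrb2 of -0.07.

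**Figure D1:**
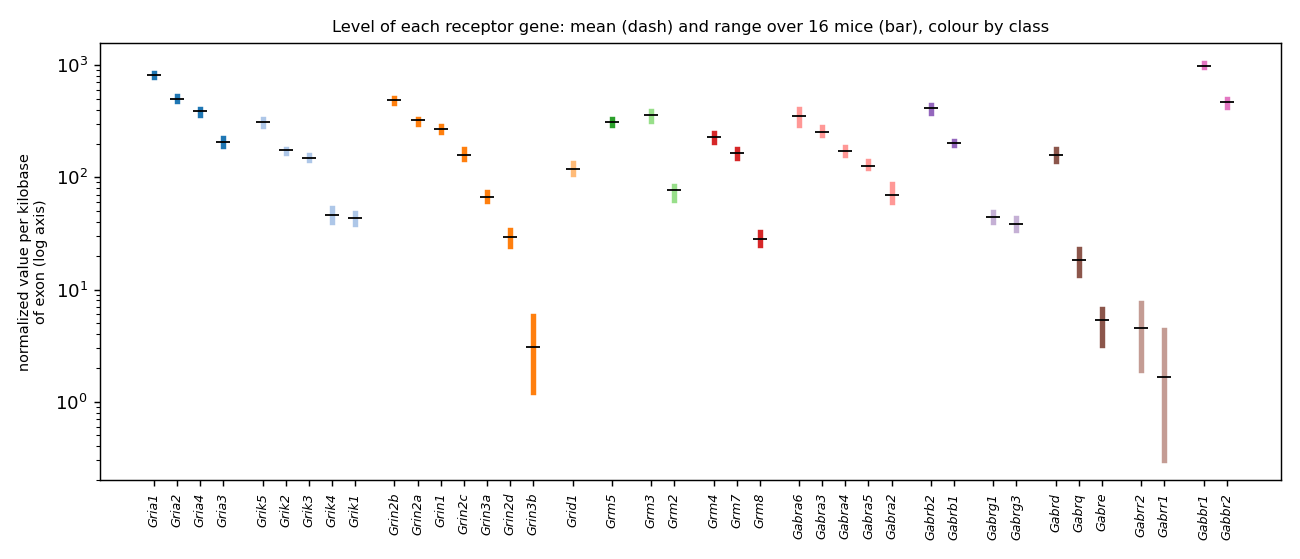
Normalized value per kilobase of exon (log axis) for 39 receptor genes, grouped by receptor class, with the dash at the mean and the bar spanning the lowest to the highest of 16 mice. Gabbr1 and Gria1 sit highest at 991 and 816, while Gabre, Gabrr2, Grin3b and Gabrr1 sit at 5.32 or lower (the bar of Gabrr1, whose lowest value is 0, is cut at the axis).

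The comparison of ki/ki with wt/wt brains asked which receptor genes differ at 5 months. None of the 43 receptor genes tested passed limma at a Benjamini-Hochberg adjusted p under 0.1, where 0.133% of all 23244 genes did. At an unadjusted p under 0.01, the limit the study uses for regulated genes, 3 receptor genes were found (6.98%, background 1.56%), the GABA-A subunit genes Gabrq, Gabrb2 and Gabrd. No glutamate receptor gene was among them, and the difference between the 2 families was not tested. At an unadjusted p under 0.05 there were 9 (20.9%, background 6.08%), 2 higher and 7 lower in ki/ki mice. Without wt/wt replicate 2, the count at p under 0.01 was 5, with Gria3 among those added, and without the mean-variance trend in limma it was 1, Gabrq. Gabrr1 was not tested because its values, 0 to 7 in ki/ki and 1 to 10 in wt/wt mice, did not pass the filter on low values.

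More receptor genes had lower than higher fitted values in ki/ki brains. Of the 43 tested, 31 had a negative log2 fold change (72.1%, background 50.5%), and the median was -0.02 against a median of -0.001 over all genes. For glutamate receptors 16 of 25 were lower with a median of -0.02, and for GABA receptors 15 of 18 with a median of -0.03. Of the 10 pan-neuronal markers, 8 were lower, with a median of -0.03, and none passed the test. The part of a general neuronal difference in the receptor values was not tested. These are counts from 1 set of 16 mice over genes that vary together, so they carry no test.

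The measurements were narrow enough to bound most differences. The 95% interval of the fold change lay within 0.1 log2 units of zero (7.18%) for 22 of the 43 genes and within 0.2 units (14.9%) for 37. The intervals that reached beyond 0.25 units belonged to Gabrq and to the scarce Gabre, Gabrr2 and Grin3b.

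**Figure D2:**
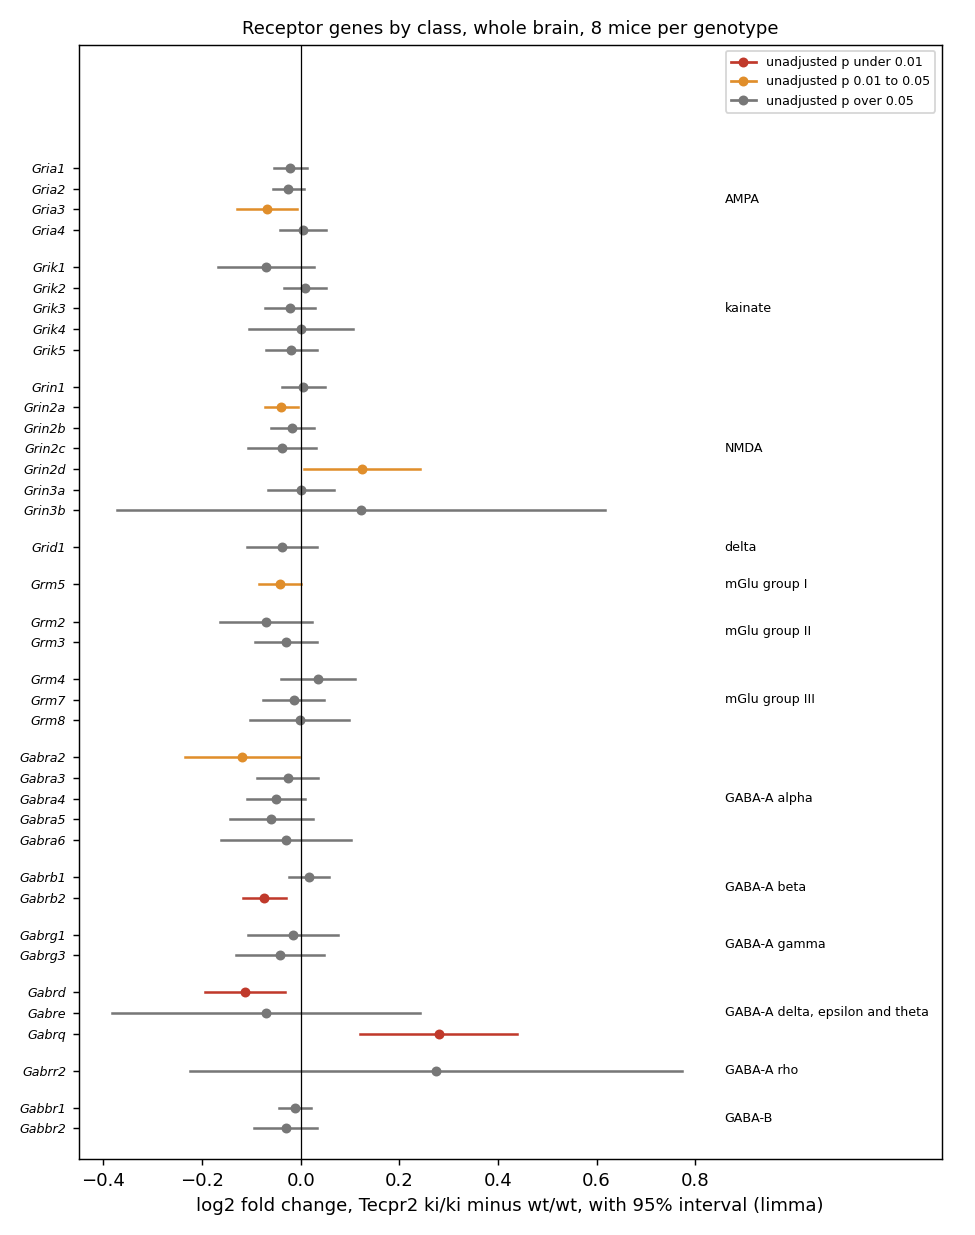
Log2 fold change (ki/ki minus wt/wt, limma on log2(value + 1)) with its 95% interval for 38 of the 43 tested receptor genes, ordered by class and coloured by unadjusted p. The intervals of Gabrq, Gabrb2 and Gabrd (p under 0.01) lie clear of 0, as do those of the 5 genes with p between 0.01 and 0.05, and 27 of 38 points lie left of 0.

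Gabrq (ENSMUSG00000031344), which encodes the theta subunit, an uncommon subunit best known from hypothalamic and monoaminergic neurons, had the largest difference among the tested members. Its normalized value was 99, 107.5 and 123 (lowest, median and highest) in ki/ki mice, against 73, 90.5 and 97 in wt/wt mice. Every ki/ki mouse was above every wt/wt mouse, which 1 of 43 receptor genes showed and 0.086% of all genes. The log2 fold change was 0.28 with a standard error of 0.08 (limma, unadjusted p = 0.000787, adjusted p = 0.254). The exact two-sided permutation p was 0.000155, the smallest that 12870 splits of the mice can give. Any complete separation gives this p, so it adds nothing to the statement before. The spread of Gabrq within a genotype was 0.796 times what counting alone would give, the lowest ratio among the 44 receptor genes. Counting sets a floor on the expected spread, so a ratio this low adds no support to the separation. The adjusted p missed the limit.

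Gabrq lies with Gabre and Gabra3 in a cluster of GABA-A genes on chromosome X (positions 72255999 to 72842602, build GRCm38). The neighbours did not share its separation. Gabra3, which codes for an alpha subunit that theta can join, had 931, 976 and 1092 in ki/ki and 943, 1011 and 1067 in wt/wt mice (log2 fold change -0.03, standard error 0.03). Gabre, the epsilon subunit gene, had only 15 to 31 and 18 to 32. Summed markers of the neurons in which theta is best known overlapped between the genotypes. Monoaminergic markers summed to 56.3 to 61.6 per 1000000 in ki/ki and 54.7 to 63.0 in wt/wt mice (5 of 8 tested markers higher, none past the test). Hypothalamic markers summed to 32.1 to 37.8 and 34.0 to 39.8 (3 of 10 higher, 7 lower, none past the test). The hypothalamic sum came mostly from the most abundant gene of that list, so it says little about the others. Any part of such neurons in the Gabrq difference was not tested. Of these markers Ddc, which makes dopamine and serotonin from their precursors, had 124 to 160 against 95 to 143. Its unadjusted p was 0.00393 (limma, adjusted p = 0.513) and its exact permutation p 0.0169. In the same list, 3 of the 8 tested monoaminergic markers were lower in ki/ki mice.

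Gabrb2 (ENSMUSG00000007653) encodes the beta subunit of the most common GABA-A receptor form. It measured 2391, 2570.5 and 2641 in ki/ki and 2552, 2677 and 2790 in wt/wt mice, and 3 ki/ki mice were below all wt/wt mice. The log2 fold change was -0.07 with a standard error of 0.02 (limma, unadjusted p = 0.00129, adjusted p = 0.315, exact permutation p = 0.00544), a 4.96% lower level. The groups overlapped in the remaining mice. Without the mean-variance trend in limma its unadjusted p became 0.0209.

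Gabrb2 (chromosome 11, 42419757 to 42629028, GRCm38) lies in a cluster of GABA-A genes that also holds Gabra6 (42306437 to 42321072). Gabra6 had 768, 853.5 and 976 in ki/ki against 727, 871.5 and 1004 in wt/wt mice. Its genotypes overlapped broadly, with a log2 fold change of -0.03 and a 95% interval of -0.162 to 0.102.

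Gabrd (ENSMUSG00000029054, chromosome 4, 155384980 to 155398112, GRCm38) encodes the delta subunit of receptors outside the synapse, which carry tonic inhibition. It had 404, 443.5 and 483 in ki/ki against 445, 468.5 and 514 for wt/wt. The log2 fold change was -0.11 with a standard error of 0.04 (limma, unadjusted p = 0.00781, adjusted p = 0.587, exact permutation p = 0.0160), and 4 ki/ki mice were below every wt/wt mouse. Leaving out single mice moved its p between 0.00212 and 0.0262, with 9 of 16 below 0.01.

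Gabra2, an alpha subunit common in the forebrain, had 463, 512 and 562 in ki/ki against 480, 545.5 and 668 in wt/wt mice (log2 fold change -0.12, limma unadjusted p = 0.0431, adjusted p = 0.820). Its exact permutation p was 0.0898. Gabra4, a forebrain alpha subunit, had 970 to 1089 against 984 to 1140, and Gabra5, the alpha subunit known from hippocampus, 358 to 400 against 362 to 415. Gabrg1 had 317 to 380 against 331 to 383 and Gabrg3 403 to 500 against 436 to 518. All 6 alpha and all 3 gamma genes had negative fold changes, and of the beta genes Gabrb1 (2694 to 2873 against 2730 to 2890) had a positive one of 0.02. Gabra4 and Gabrb1 overlap on opposite strands, and whether the counting used strand is not stated in the sources used here.

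Of the remaining GABA-A subunits, Gabrr2, a rho subunit best known from retina, was tested at very low values of 6 to 14 against 4 to 16. The GABA-B genes Gabbr1 and Gabbr2 had log2 fold changes of -0.01 and -0.03, with values of 7444 to 8038 against 7537 to 7839 for Gabbr1 and 2821 to 3308 against 2994 to 3340 for Gabbr2. Their 95% intervals were -0.043 to 0.020 and -0.095 to 0.034, so a difference of 10% in either direction falls outside both.

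Of the glutamate receptors the AMPA class had 1 gene at an unadjusted p under 0.05. Gria3, an AMPA subunit gene on chromosome X (41400854 to 41678601, GRCm38), had 1877, 2014 and 2140 in ki/ki and 1879, 2126 and 2216 in wt/wt mice (log2 fold change -0.07, standard error 0.03, limma unadjusted p = 0.0268, adjusted p = 0.772). The exact permutation p of 0.0852 missed 0.05. Gria1 (4750 to 5089 against 4845 to 5068) and Gria2 (7501 to 8083 against 7654 to 8200), which form the most common AMPA receptor, both had log2 fold changes of -0.02, and Gria4 (2316 to 2579 against 2268 to 2573) of 0.01. The ranges of all 4 genes overlapped between genotypes.

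The NMDA class was split, with a median log2 fold change of 0.0004 and 4 genes higher and 3 lower. Grin2a, a subunit that becomes more common as the brain matures (chromosome 16, 9567898 to 9995560, GRCm38), had 5406, 5689 and 5847 in ki/ki and 5704, 5860 and 5960 in wt/wt mice (log2 fold change -0.04, unadjusted p = 0.0203, adjusted p = 0.735, exact permutation p = 0.0171). Of the 31-base words in its transcripts, 12.1% also occur in other genes. Grin2d, the subunit known from early development, interneurons and brainstem (chromosome 7, 45831883 to 45878378, GRCm38), had 189, 203.5 and 227 against 162, 188 and 217 (log2 fold change 0.12, unadjusted p = 0.0396, adjusted p = 0.814, exact permutation p = 0.0353). Grin2d overlaps the gene Gm45441 on the opposite strand. Grin2b (11323, 11915 and 12495 against 11510, 12140.5 and 12702) and the obligatory subunit gene Grin1 (2474 to 2773 against 2502 to 2744) had log2 fold changes of -0.02 and 0.01. Grin2c, a cerebellar subunit, had 736 to 812 against 735 to 896, and Grin3a, which lowers calcium entry, 748 to 903 against 775 to 896. Grin3b, at 4 to 19 in any mouse, was too scarce for a narrow estimate.

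No kainate or delta gene reached an unadjusted p under 0.05. Grik5, the kainate leader per kilobase, measured 1491, 1594 and 1682 in ki/ki and 1540, 1610.5 and 1709 in wt/wt mice. The delta gene Grid1 had 646, 701.5 and 739 against 662, 708.5 and 803. Both pairs of ranges overlapped. The other kainate genes were Grik2 at 2249 to 2381 against 2205 to 2371, Grik3 at 1294 to 1395 against 1306 to 1409, Grik4 at 239 to 289 against 247 to 321 and Grik1 at 258 to 323 against 280 to 316. Grik1 had the lowest fold change of the class (-0.07, 95% interval -0.167 to 0.028).

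Among metabotropic receptors Grm5, a group I receptor coupled to calcium release, reached p = 0.0498 (limma, adjusted p = 0.821) with 2984, 3166.5 and 3330 against 3081, 3232 and 3404, and its exact permutation p was 0.10. The group II gene Grm3 had 976 to 1159 against 1043 to 1182. Its partner Grm2, a presynaptic autoreceptor, had 310 to 406 against 371 to 402, with medians of 388 and 386. For Grm2, 3 ki/ki mice were below and 1 was above every wt/wt mouse. In group III, whose members mostly restrain release, Grm4 had 1231 to 1483 against 1247 to 1453, Grm7 903 to 1041 against 873 to 1019 and Grm8 246 to 322 against 270 to 293. The ranges overlapped for all 7 metabotropic genes.

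**Figure D3:**
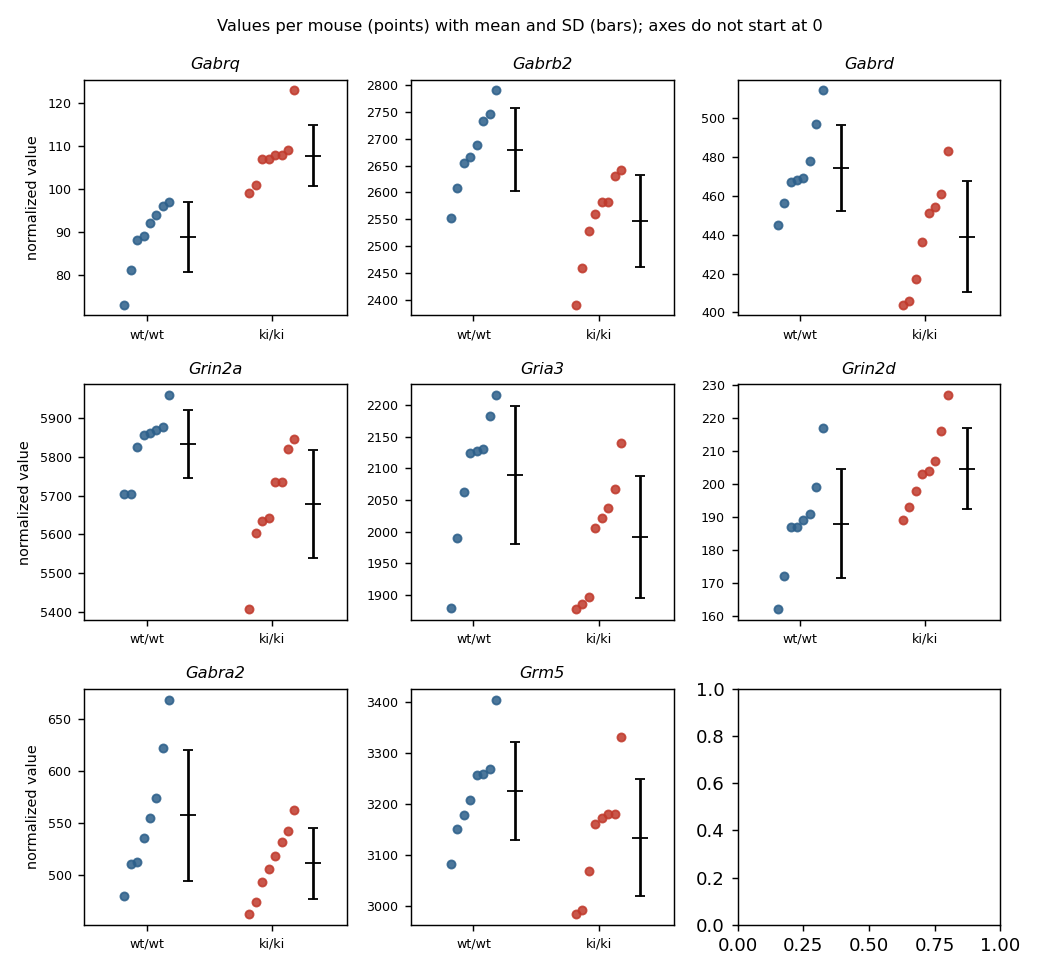
Normalized value in each of 8 wt/wt and 8 ki/ki mice (points) for 8 of the receptor genes with an unadjusted p under 0.05, with the mean and SD beside each group and axes that do not start at 0. The groups of Gabrq do not overlap (99 to 123 against 73 to 97), and those of the other 7 genes do.

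Ratios between subunits of a class were taken per kilobase in each mouse, and all 11 computed overlapped between the genotypes. The ratio of Gabrb2 to Gabrb1 was 1.85 to 2.09 with a median of 1.97 in ki/ki and 2.03 to 2.18 with a median of 2.09 in wt/wt mice. This was the ratio with the least overlap, 7 of 8 ki/ki mice being below every wt/wt mouse, and it uses the same Gabrb2 values as above. Grin2a to Grin2b, the ratio that rises as NMDA receptors mature, had medians of 0.661 and 0.670. The ratio of Gabrq to the scarce Gabre differed most in size, with 3.08 to 6.37 and a median of 3.81 in ki/ki and 2.65 to 4.52 and a median of 2.91 in wt/wt mice, and 2 ki/ki mice were above every wt/wt mouse. The summed glutamate to GABA receptor ratio was 1.17 to 1.22 in ki/ki and 1.15 to 1.21 in wt/wt mice, with a median of 1.19 in both.

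The receptor genes were also read beside other genes of the 2 transmitter systems. Of 84 such genes in 9 lists, 56 were lower and 28 higher in ki/ki brains (median log2 fold change -0.01, with 50.5% of all genes lower), and 5 reached an unadjusted p under 0.01 (5.95%, background 1.56%). At adjusted p under 0.1, 2 of them passed (background 0.133%). Gad1, the main enzyme that makes GABA, fell, with 3293, 3428 and 3525 in ki/ki and 3457, 3629 and 3909 in wt/wt mice (log2 fold change -0.09, standard error 0.02, adjusted p = 0.0681), and Slc1a2, the main astrocytic glutamate transporter, rose, with 44657, 45590.5 and 46722 against 42299, 43363.5 and 45369 (log2 fold change 0.06, standard error 0.01, adjusted p = 0.00229).

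The other 3 did not pass after adjustment. Gad2, the second GABA-synthesizing enzyme, had 2580 to 2730 against 2591 to 2825 (log2 fold change -0.06, unadjusted p = 0.00354). Nptx2, a secreted pentraxin that clusters AMPA receptors, had 224 to 266 against 261 to 285 (log2 fold change -0.18, unadjusted p = 0.000602), with 6 ki/ki mice below all wt/wt mice. Glra2, a glycine receptor alpha subunit, had 95 to 134 against 113 to 159 (log2 fold change -0.26, unadjusted p = 0.00130).

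By list, none of the genes past the test lay among the 15 AMPA auxiliary subunits (5 higher, 10 lower), the 2 kainate auxiliary subunits (both lower), the 8 delta receptor partners (4 and 4), the 18 glutamate receptor scaffolds (5 higher, 13 lower), the 14 GABA-A scaffolds and assembly factors (3 higher, 11 lower), the 4 GABA-B auxiliary subunits (3 higher, 1 lower) or the 4 glycine receptor genes (all lower). The 11 genes of glutamate release, uptake and metabolism had 1 riser, Slc1a2 (4 higher, 7 lower), and the 8 genes of GABA synthesis, transport and breakdown had 1 that fell, Gad1 (4 higher, 4 lower).

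Markers of cell types and regions moved with the genotype in 3 of 15 lists. Astrocyte markers summed to 5510 to 5670 per 1000000 in ki/ki and 5160 to 5410 in wt/wt mice, microglia markers to 226 to 237 and 198 to 218, and striatal projection neuron markers to 624 to 664 and 665 to 712, with no overlap in any of the 3. Gfap, Aqp4 and Slc1a2 of the 10 astrocyte markers and Trem2, Ctss and Mpeg1 of the 10 microglia markers rose past the adjusted limit (background 0.133%). The fold changes of the rest were smaller or did not pass, and in all 8 astrocyte markers were higher and 2 lower, and 9 microglia markers higher and 1 lower. Slc1a2, already counted among the transmitter genes above, made up most of the astrocyte sum. Of the 9 striatal markers 2 fell, Penk among them, the other 7 being lower without passing the test. No marker of these lists was at 0. Their part in the receptor values was not tested. In the other 12 lists no gene passed the test, the summed levels overlapped, and median log2 fold changes lay between -0.03 and 0.07.

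The spread between mice of 1 genotype was set beside counting noise as a description. The SD of log2 values within a genotype was 0.796 to 3.56 times the spread that counting alone would give at the estimated depth, with a median of 1.47. Of the 44 genes, 8 were above 2 and 5, Gabrq among them, were at or below 1. Library preparation and normalization also add to this spread and were not separated from differences between mice. Receptor genes were also set beside the level of cerebellar granule cell markers, none of which is a receptor gene. Over the 16 mice with genotype means removed, Gabra6 (Pearson r = 0.848, Spearman rho = 0.703, r = 0.683 without the 2 outermost mice), Grm4 (0.724, 0.694 and 0.618) and Grin2c (0.710, 0.721 and 0.562) were highest among 43 genes, whose median r was -0.048. Granule cells are known to use all 3. Gabra6 also had r = 0.864 (rho = 0.838, r = 0.821 without the 2 outermost mice) with Purkinje cell markers, which mark the same region. Grin2b had r = -0.821 (rho = -0.879, r = -0.827 without the 2 outermost mice) with the brainstem and spinal cord markers. The points share the tissue and one normalization, the genes were picked for their high r, and no test is given.

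**Figure D4:**
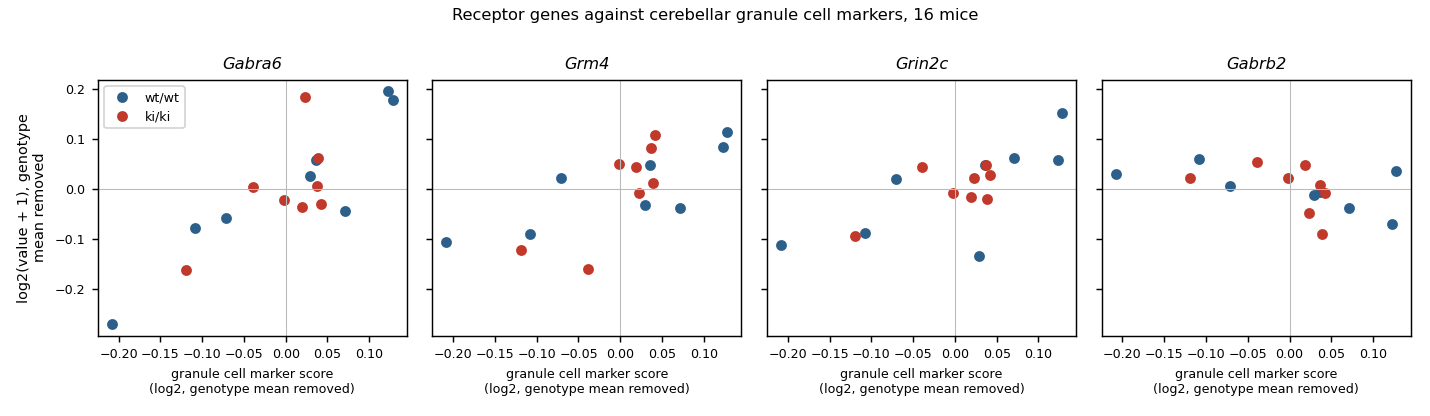
Log2(value + 1) of 4 receptor genes against the mean log2 level of cerebellar granule cell markers in 16 mice, each with the genotype mean removed. Gabra6, Grm4 and Grin2c rise with the score (r = 0.848, 0.724 and 0.710), and Gabrb2 runs the other way (r = -0.482). Gabrb2 is not the most negative gene, the lowest r among the 43 tested genes being -0.635.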

How the data were processed

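Whole brain total RNA (RNeasy with Trizol, RIN over 7) was made into stranded libraries after ribosomal RNA depletion and sequenced in pairs. Per the paper's methods and the submitters' processing notes the authors trimmed reads with Trim Galore 0.6.10 and cutadapt 3.4, aligned them to GRCm39 with STAR 2.7.10b, counted genes with summarizeOverlaps and tested with DESeq2 1.40.2. What the authors deposited is a score for each gene in each mouse, on a linear normalized scale and without decimals. Which normalization was applied is not given in the sources used here. All 16 columns of the joint table equalled the single-mouse tables.

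Symbols came from a gene name table, lengths and coordinates from GENCODE vM21 (GRCm38). Because the values are not counts, limma 3.58.1 (R 4.3.3, trend and robust) was fitted to log2(value + 1) by genotype over 23244 genes with a sum over 16 and values over 5 in at least 4 mice of a genotype, with Benjamini-Hochberg adjustment and a call at adjusted p under 0.1. The fit was tested on simulated data, with changes planted only in genes more abundant than Gabrq and larger than most receptor differences here. That run cannot show how the fit performs for scarcer genes or smaller changes. Exact two-sided permutation tests covered named members. Replicates are separate mice. Depth was estimated from the whole numbers that rescaling skips or repeats, and limits scarce genes most.

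Values are given for members with unadjusted p under 0.05, the highest gene per kilobase of each class, members of clusters that hold a gene with p under 0.01, and members below the filter. Genes of other lists are named at p under 0.01. A few genes that these rules would name are not reported here, though they remain in the fits and in the counts over classes and lists. Members, lists and settings were chosen with earlier results of these data known. Gabrq and Gabrb2 are also among genes the study lists from these mice, so their selection is not independent. No p is given over a list. Alternatives were other pseudocounts, filters, scalings and limma options, a replicate block, region marker scores as covariates (added after the data were seen) and leaving out each mouse.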

Additional observations from a re-analysis of the deposited data

Results flagged for a closer look

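In 76 groups of 8 mice (38 tested receptor genes in each genotype), 4 had 1 mouse set far from the others by Dixon's gap criterion, where chance flags about 1 in 20 groups, or 3.8 here. For Gabrq, ki/ki replicate 8 was at 123, and its gap to the next mouse was 0.583 of the range of the group. For Gabrb1, wt/wt replicate 6 was at 2890 and the next at 2786. For Gria4, wt/wt replicate 5 was at 2268 and the next at 2440. For Grm7, wt/wt replicate 3 was at 873 and the next at 956. Each of the 4 mice was far out for a different gene.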

How the results depend on the processing

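No receptor gene passed limma at adjusted p under 0.1 under any of the 25 alternatives, and the median log2 fold change of the receptor genes stayed negative in all of them. The count at unadjusted p under 0.01 was 3, and it became 1 without the trend (298 genes over all, from 362), Gabrb2 and Gabrd moving above that limit. When single mice were left out, that count ranged from 2 to 5, the median log2 fold change from -0.0235 to -0.0167 and the count past the adjusted limit from 0 to 0. The highest, 5, came without wt/wt replicate 2, where Gria3 was among those that joined. Gabrq and Gabrb2 kept p under 0.01 in 16 of 16 such fits and Gabrd in 9, the others being without ki/ki replicates 1, 2, 6 or 8 or wt/wt replicates 1, 6 or 8. The Gabrq log2 fold change was smallest, 0.241, without wt/wt replicate 8, and next smallest, 0.2525, without ki/ki replicate 8. These 2 libraries had the lowest estimated depth of their genotypes, 10.07 and 9.23 megareads. Over all genes, the 31 at adjusted p under 0.1 became 20 without the filter on low values and 15 without the trend. The region marker scores, an alternative chosen after seeing the data, gave 4 genes at p under 0.01.

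The labels number mice 1 to 8 in each genotype, and the main fit did not treat equal numbers as pairs. Correlations of same-numbered mice ran from -0.039 to 0.149, and 3 of 8 correlated best with their own number. These values cannot settle whether the numbers pair mice. With the replicate block, 0 receptor genes passed at adjusted p under 0.1 and 3 were at p under 0.01, where Gabra2 entered and Gabrd left, and 46 genes over all passed, from 31. Scaling to library totals moved the median of all genes to 0.0029. Depth limits Gabre, Gabrr2, Gabrr1 and Grin3b, whose values stayed at or below 32 in every mouse.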
